A study of Mus musculus with 3 samples.

Results

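Microtubule motors, tubulins and centrosomal proteins were followed at the mRNA level in mouse oocytes of the ICR strain arrested at metaphase II. Collected as germinal vesicle oocytes, they spent 16 to 18 h of maturation in M16 medium. The 3 groups were aged oocytes matured with a secretome (aged-sec), which came from mesenchymal stem cells of the human umbilical cord and was mixed 1:1 into the medium, aged oocytes matured without it, and young oocytes matured without it. The mice's ages were not stated in the labels, and the treatment field names the secretome on all 3 samples, so groups follow the sample titles. Each library was made from 20 oocytes of 4 mice and there was 1 library per group. Values therefore come without replicate error or p-values, and each difference separates libraries, not conditions. In such a pool, fewer oocytes with an mRNA and less of it per oocyte cannot be told apart.

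The members were the genes of the deposited table whose symbol starts with Kif and a digit (other than Kif23), Cep and a digit, Haus, Dync, Tuba, Tubb or Tubg. They were 46 of the 6104 gene symbols listed, and they held 83 of the 9126 listed transcripts. Each gene was represented by its listed transcript with the highest mean level. Levels are TPM, transcript abundances that sum to 1000000 over a whole library and are corrected for transcript length, and their sequencing depth is unknown. The table holds only transcripts whose aged over young ratio was at least 1.2, so aged was higher than young for every member through the way the table was made. The members comprised 16 Kif genes, 2 Dync genes, 2 tubulins, 4 Tubgcp genes, 3 Haus genes and 19 Cep genes.

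Mouse oocytes have no centrioles, and their spindle is built by acentriolar microtubule-organizing centres. Gamma-tubulin ring complexes, which contain the Tubgcp proteins, start new microtubules there and, through the augmin (Haus) complex, from the sides of existing ones. Kinesins (Kif) move along microtubules, mostly toward the plus end, or alter their ends, and cytoplasmic dynein (Dync) moves toward the minus end. Many Cep proteins build centrioles, the matrix around them or the base of cilia, and some also serve the cleavage of cells. Because the maturing oocyte is transcriptionally silent, its mRNAs are stored ones, and the poly(A) tails of some of them are lengthened through cytoplasmic polyadenylation elements (CPE) near the polyadenylation signal of the 3' untranslated region.

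The 3' ends of 5 of the more abundant members are shown to place this element. Of the 26 members represented by a curated RefSeq transcript, 25 matched a transcript of GENCODE release M21 (GRCm38). In the last 100 bases of these 25, read on the transcript strand, TTTTAT or TTTTAAT occurred in 7 (28.0%), against 20.7% of 3693 matched transcripts of all listed genes. The polyadenylation signals AATAAA or ATTAAA occurred in 18 of 25 (72.0%), against 79.5% of all. Both kinds of motif were present in 5 (20.0%), against 17.2% of all. In the lines below, capitals mark the CPE and the polyadenylation signal, written 5' to 3' as DNA. The first 2 have a CPE 10 and 11 bases ahead of the signal. In the third the CPE lies outside the stretch shown, starting 91 bases from the transcript end. The last 2 have a signal and no CPE in the window.
Kif18a (chr2:109341707-109341736, plus strand): aataTTTTATtacttggtatATTAAAgatg
Cep135 (chr5:76646421-76646450, plus strand): atgTTTTATagcaaaatatgAATAAAaagg
Cep57l1 (chr10:41718853-41718882, minus strand): cacatgttacatAATAAAtttatacttttt
Kif14 (chr1:136531482-136531511, plus strand): atgtattccaggAATAAAgtactgttgttg
Cep83 (chr10:94790824-94790853, plus strand): gttaagaaacctATTAAAactagaaaagac
All 5 lie in the annotated 3' untranslated region, and they include each of the 3 matched members at 10 TPM or more with a CPE. Haus1, Cep57, Kif17 and Tubgcp5, also at that level, had neither motif and are not shown. A match describes these letters only, and the 3' ends that the oocytes used were not measured.

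Of 22 fixed oocyte markers 9 were listed, among them Rfpl4 (4098 TPM in aged-sec, 4485 TPM in aged and 3024 TPM in young oocytes) and the oocyte growth factor Bmp15 (799, 817 and 585 TPM in the same order). Of 19 granulosa and cumulus markers 3 were listed, and together they summed to 2.48, 3.68 and 2.13 TPM. Fshr, the follicle-stimulating hormone receptor, was at 0.22, 0.55 and 0.03 TPM. Of 17 markers of theca, stroma and blood 6 were listed, with sums of 6.04, 9.18 and 4.42 TPM. Both sums were highest in the aged library, as the selection of the table requires for each listed transcript against young, and their part in the results was not tested. Listed transcripts of 3 oocyte markers were low, with Gdf9 at 4.46, 6.81 and 4.36 TPM, Btg4 at 0.66, 1.84 and 1.31 TPM and Ddx4 at 0.17, 0.69 and 0.34 TPM, each a predicted transcript. The markers outside the list were not analysed here.

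Of the 113 RefSeq protein-coding genes (GRCm38.p6) that carry such a symbol, 45 (39.8%) were listed, against 27.4% of all 21900 protein-coding genes. The remaining member, Kif1bp, stands under another symbol there. By family, 15 of 37 Kif genes, 2 of 7 Dync genes, 2 of 16 tubulins, 4 of 7 Tubg and Tubgcp genes, 3 of 8 Haus genes and 19 of 38 Cep genes were listed. The tubulins thus had the smallest listed share of these families (12.5%) and the Tubg and Tubgcp genes the largest (57.1%). Members were matched by symbol and all genes by transcript. The shares were not matched for level in oocytes or number of annotated mRNAs, so their differences were not tested as effects of age. The genes outside the list were not analysed here, so the values below describe the listed part of each family.

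Most members were low. Of the 46, 17 reached 10 TPM in some library, 20 reached 1 TPM and stayed under 10 TPM, and 9 stayed under 1 TPM throughout. The highest value of any member was 60.35 TPM for Kif18a in aged oocytes, followed by 60.12 TPM for Cep55 in aged-sec oocytes. All 83 listed transcripts of the members summed to 554 TPM in aged-sec, 645 TPM in aged and 452 TPM in young oocytes. Those sums were 0.172%, 0.198% and 0.197% of the listed TPM of the same libraries.

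**Figure D1:**
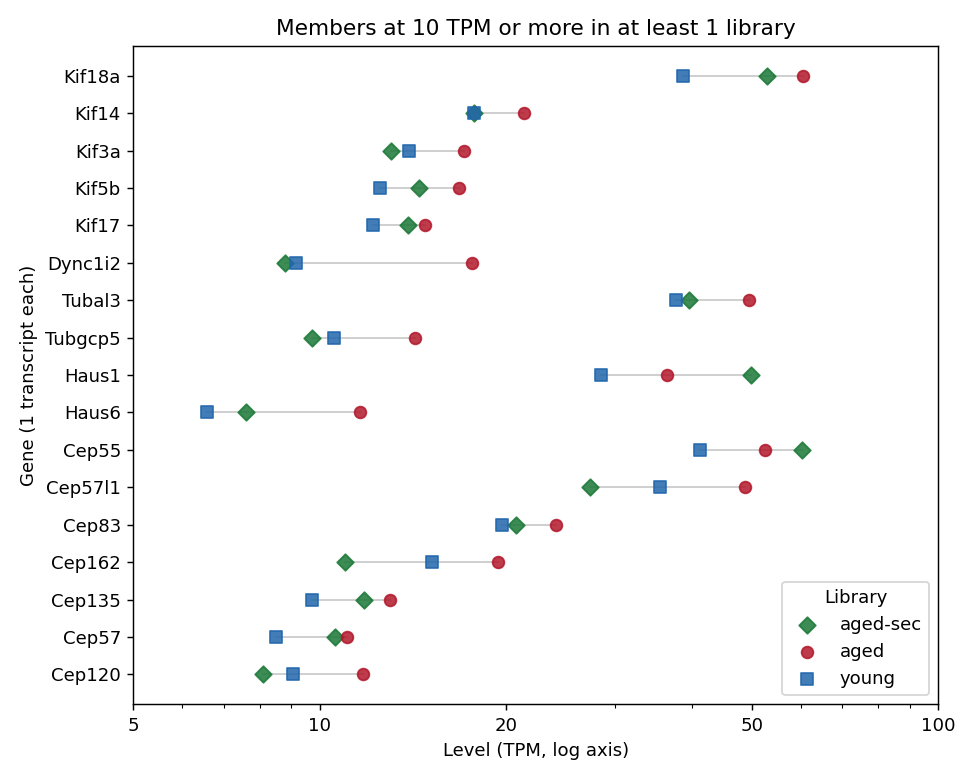
Levels (TPM, log axis) of the 17 members that reached 10 TPM in any library, with 1 point per library and 1 transcript per gene, grouped by family. Aged lies right of young in each row because the table was selected so, aged-sec lies left of aged in 15 rows, and Haus1 and Cep55 are the rows where it lies right of aged.

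The first question was by how much these mRNAs were higher in aged than in young oocytes. The largest differences at 10 TPM or more were seen for the dynein intermediate chain gene Dync1i2, the augmin gene Haus6 and the kinesin gene Kif18a, and none of the 17 members with enough TPM was 2-fold higher. The size rule asked for a log2 ratio of 1 or more, computed after adding 0.5 TPM to both values, and for 10 TPM or more in the pair's higher library. It called 0 of 17 members, against 15.9% of the 1759 listed genes with enough TPM. At a 1.5-fold difference it was met by 3 of 17, against 44.4% of the listed genes. The median log2 ratio over all 46 members was 0.41, and that over all listed genes was 0.47. Among genes with at least 10 TPM the medians were 0.37 for the 17 members and 0.53 for all. Scaling the listed genes to equal medians in the libraries moves the median log2 ratio over all of them to -0.10 for this pair. Then 35 of 46 members had aged below young, against 61.2% of all listed genes. Because each listed transcript was selected for aged over young, this scaling takes out the rise that the selection put in. Here and below, scaled directions are therefore relative to the list and do not show which library was higher in the oocytes.

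The second question was whether maturation with the secretome went with other levels of these mRNAs in aged oocytes. Aged-sec was below aged in 40 of 46 members and above it in 6, against 72.5% below over all listed genes, while after scaling to equal medians 20 of 46 were below, against 44.0% of all. The median log2 ratio was -0.24 over the members and -0.20 over all listed genes. That scaling moves the median over all listed genes to 0.05 for this pair. Under the 2-fold size rule 0 of 17 members were higher and 0 were lower, against 0.168% and 2.18% of the 1789 listed genes with enough TPM. At 1.5-fold 0 members were higher and 3 were lower, against 1.4% and 10.6%. The 3 were Dync1i2, Cep57l1 and Cep162. Since the aged library enters both this comparison and the one with young, its values bear on both. The table was selected for high aged over young, which favours transcripts high in aged and hence aged-sec below aged. How much of these counts comes from that selection was not tested.

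The remaining pair sets aged-sec against young oocytes and does not use the aged library, although the list was selected with it. Under the 2-fold size rule 0 of 14 members with enough TPM were higher and 0 were lower, against 14.2% and 0.311% of 1609 listed genes. At 1.5-fold 1 member, Haus1, was higher and 0 were lower, against 33.8% and 0.622%. The median log2 ratio was 0.17 over the 46 members and 0.29 over all listed genes. Aged-sec was above young in 32 members and below it in 14, where 75.6% of all listed genes were above. After scaling to equal medians, 14 members were above and 32 (69.6%) below, where 55.6% of all listed genes were below.

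**Figure D2:**
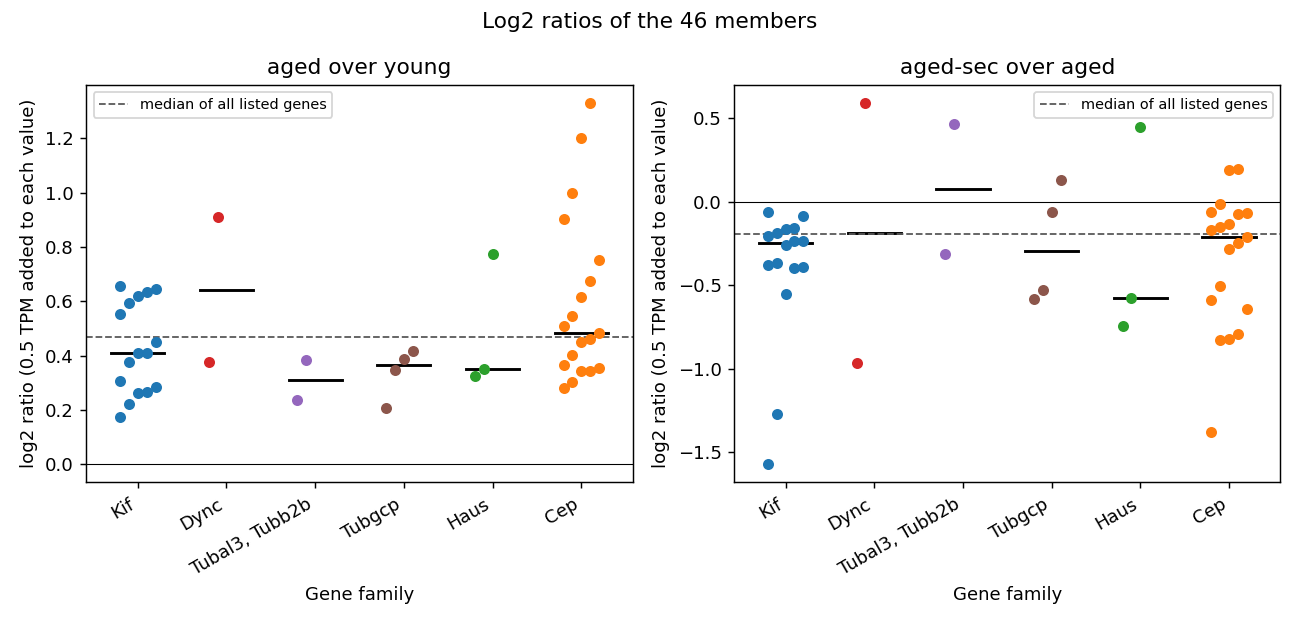
Log2 ratios (0.5 TPM added to each value) of the 46 members by family, aged over young on the left and aged-sec over aged on the right. Points are genes, black bars the family medians, and dashed lines the medians of all listed genes (0.47 and -0.20). All 16 Kif points on the right lie below 0, and the Dync, tubulin, Tubgcp, Haus and Cep columns hold points on both sides.

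Among the kinesins, Kif18a was the most abundant. It encodes a motor of the kinesin-8 type that works at microtubule plus ends and damps chromosome movements at metaphase. Its curated transcript, whose 3' end with a CPE is printed above, stood at 52.9 TPM in aged-sec, 60.4 TPM in aged and 38.7 TPM in young oocytes. Aged was the highest and young the lowest, with log2 ratios of 0.63 for aged over young and -0.19 for aged-sec over aged. Kif14, a motor of the midbody in cytokinesis, stood at 17.8, 21.4 and 17.7 TPM in the same order, so aged-sec and young were almost level. The log2 ratio of aged-sec over young was 0.00. Kif3a, a subunit of the kinesin-2 motor of cilia and transport, stood at 13.0 TPM in aged-sec, 17.1 TPM in aged and 14.0 TPM in young oocytes, with aged-sec the lowest. Its partner Kif3b was lower, at 4.94, 5.91 and 4.44 TPM.

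Kif5b, the heavy chain of the widely expressed kinesin-1 cargo motor, stood at 14.5 TPM in aged-sec, 16.8 TPM in aged and 12.5 TPM in young oocytes. Kif17, another kinesin-2 motor, stood at 13.9, 14.8 and 12.2 TPM. In both genes aged-sec lay between the other libraries. Kif16b, which carries early endosomes, stood at 4.88, 6.57 and 4.67 TPM, and Kif24, which binds microtubules at the centriole and restrains cilia, at 4.38, 4.95 and 3.60 TPM. Kif1bp, which the symbol rule takes in although it encodes a kinesin-binding protein and not a motor, stood at 5.29, 6.0 and 4.76 TPM.

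The low kinesins gave the widest ratios. Kif22, a chromosome-bound kinesin, stood at 0.25 TPM in aged-sec, 1.73 TPM in aged and 0.95 TPM in young oocytes, a log2 ratio of -1.57 for aged-sec over aged. Kif20b, a cytokinesis motor, stood at 0.43, 1.74 and 0.92 TPM, a log2 ratio of -1.27. Both were lowest in aged-sec and both were too low for the size rule. Kif15, which can help keep the spindle bipolar, stood at 1.35, 1.89 and 1.13 TPM. The other 4, Kif9, Kif21a, Kif26b and Kif28, reached at most 1.19 TPM.

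As a family, 16 of 16 Kif genes had aged-sec below aged as deposited, a direction that the selection of the table favours. After scaling to equal medians 8 of 16 did. The 5 at 10 TPM or more had log2 ratios of -0.38 to -0.08. Counted by transcript, 25 of the 27 listed Kif transcripts were lower in aged-sec and 2 were higher, while 6439 of all 9126 listed transcripts were lower. The 2 were a second variant of Kif18a (XM_006499259), at 17.9 TPM in aged-sec, 16.0 TPM in aged and 9.96 TPM in young oocytes, and a variant of Kif21a (NM_001109040) at 0.20, 0.19 and 0.14 TPM.

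For dynein, the 2 listed genes went opposite ways between aged-sec and aged oocytes. Dync1i2, an intermediate chain that links the cytoplasmic dynein motor to dynactin, stood at 8.78 TPM in aged-sec, 17.7 TPM in aged and 9.17 TPM in young oocytes. The aged library stood apart, and the others were near each other. The log2 ratio was 0.91 for aged over young, the widest of the members at 10 TPM or more, and -0.97 for aged-sec over aged, just short of the size rule on both sides. Dync1li2, a light intermediate chain, stood at 2.78, 1.68 and 1.18 TPM, highest in aged-sec, with a log2 ratio of 0.59 for aged-sec over aged. After scaling to equal medians, aged-sec was likewise below aged for Dync1i2 and above it for Dync1li2.

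The other 2 listed variants of Dync1i2 had the same order of aged against the rest. XM_017315324 stood at 1.58 TPM in aged-sec, 5.81 TPM in aged and 0.66 TPM in young oocytes, and XM_006498679 at 1.78, 2.95 and 0.18 TPM. Summed over the 3 variants, Dync1i2 stood at 12.1 TPM in aged-sec, 26.4 TPM in aged and 10.01 TPM in young oocytes. That sum passed the 2-fold size rule in both comparisons with aged, with log2 ratios of 1.36 for aged over young and -1.09 for aged-sec over aged. All 3 are predicted transcripts, and RefSeq annotates 22 mRNAs for the gene. The variants outside the list were not analysed, so this sum is not the level of the gene.

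Of the tubulins, the building blocks of microtubules, Tubal3 and Tubb2b were listed. Tubal3, an alpha-tubulin-like protein, stood at 39.6 TPM in aged-sec, 49.4 TPM in aged and 37.7 TPM in young oocytes for its predicted variant. Its curated variant stood at 27.7, 29.0 and 23.2 TPM. Both were highest in aged, and the log2 ratios of aged-sec over aged were -0.32 and -0.06. Tubb2b, a beta-tubulin best known from neurons, was low, at 1.95, 1.28 and 1.01 TPM, with aged-sec highest. It is nearly identical to its neighbour Tubb2a, so reads may be divided between the copies and its value is uncertain.

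Among the gamma-tubulin complex genes, Tubgcp5 was the only one above 10 TPM. It stood at 9.71 TPM in aged-sec, 14.3 TPM in aged and 10.6 TPM in young oocytes, with aged-sec lowest and a log2 ratio of -0.53 for aged-sec over aged. Tubgcp2, a core subunit, stood at 0.59, 1.13 and 0.91 TPM. Tubgcp4 and Tubgcp3, the other listed subunits, stood at 0.88, 0.94 and 0.60 TPM and at 0.78, 0.67 and 0.42 TPM. Aged-sec was thus below aged for 3 of 4 genes, and for 2 of 4 after scaling to equal medians.

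The augmin genes contained the member with the largest excess in aged-sec at 10 TPM or more. Haus1 (NM_146089) stood at 49.8 TPM in aged-sec, 36.5 TPM in aged and 28.5 TPM in young oocytes. The order was aged-sec, aged, young, with log2 ratios of 0.44 for aged-sec over aged, 0.80 for aged-sec over young and 0.35 for aged over young. Haus6, the subunit that recruits the gamma-tubulin ring complex, stood at 7.60, 11.6 and 6.57 TPM, highest in aged. Haus4 was low, at 0.12, 0.54 and 0.33 TPM. The 8 listed Haus transcripts together gave 81.3 TPM in aged-sec, 66.8 TPM in aged and 47.1 TPM in young oocytes. In TPM as deposited this was the only family whose sum was higher in aged-sec than in aged. Scaling to equal medians multiplies aged-sec by 0.963 and aged by 0.747. That raises aged-sec against aged in every family sum, so the order in the other families can depend on it.

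Haus1 itself carried the difference in the Haus sum. Its 5 listed transcripts summed to 71.8 TPM in aged-sec, 53.0 TPM in aged and 39.0 TPM in young oocytes, a log2 ratio of 0.44 for aged-sec over aged. NM_001357532 stood at 8.25, 5.27 and 4.28 TPM, and the second copy of NM_001357531 at 6.54, 3.72 and 2.15 TPM. The second copy of NM_001357532 differed from these, at 6.92, 6.95 and 3.68 TPM, with aged-sec and aged level. The remaining listed transcript was low and went the other way, at 0.29 TPM in aged-sec, 0.56 TPM in aged and 0.36 TPM in young oocytes. Near-identical copies share reads, so the values of single Haus1 transcripts are uncertain.

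**Figure D3:**
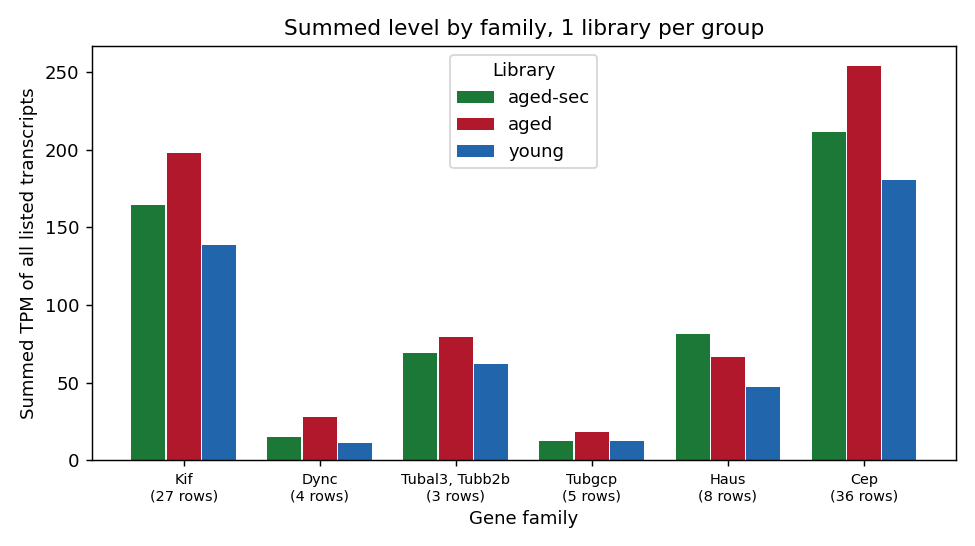
Summed TPM of all listed transcripts of each family in the 3 libraries, with the number of transcripts under each name. In these TPM as deposited, without scaling to equal medians, aged is the highest bar in each family except Haus. There aged-sec reached 81.3 TPM against 66.8 TPM in aged and 47.1 TPM in young oocytes.

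Among the Cep genes, Cep55, which directs abscission at the midbody, was the most abundant. Its main variant (XM_006527399) stood at 60.1 TPM in aged-sec, 52.5 TPM in aged and 41.3 TPM in young oocytes, and was highest in aged-sec. The log2 ratio of aged-sec over aged was 0.20. Its 6 listed variants did not move together: 2 were higher in aged-sec than in aged and 4 were lower. Their sum was 80.8, 77.7 and 55.8 TPM, with aged-sec and aged nearly level.

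Cep57l1 and Cep162 had the lowest aged-sec values relative to aged among the Cep genes at 10 TPM or more. Cep57l1, a paralog of the centriole engagement factor Cep57, stood at 27.3 TPM in aged-sec, 48.8 TPM in aged and 35.6 TPM in young oocytes. Cep57 itself stood at 10.6, 11.1 and 8.49 TPM, so that aged-sec was far below aged for Cep57l1 and close to it for Cep57. Their log2 ratios of aged-sec over aged were -0.82 and -0.06. Cep162, a protein of the ciliary base, stood at 11.0, 19.4 and 15.2 TPM, a log2 ratio of -0.79. In Cep57l1 and Cep162, aged-sec was also below young, with log2 ratios of -0.37 and -0.45.

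The other Cep genes at this level differed less. Cep83, a distal appendage protein, stood at 20.8 TPM in aged-sec, 24.1 TPM in aged and 19.7 TPM in young oocytes. Cep135, which helps assemble the centriole, stood at 11.8, 13.0 and 9.72 TPM. Cep120, needed for centriole elongation, stood at 8.10, 11.7 and 9.07 TPM, with aged-sec lowest. Aged was the highest library in all 3.

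Cep192, the matrix scaffold that gathers Aurora A and gamma-tubulin and is present at the organizing centres of mouse oocytes, stood at 5.77 TPM in aged-sec, 5.83 TPM in aged and 2.88 TPM in young oocytes. Aged-sec and aged were level and young was lowest, with log2 ratios of 0.91 for aged over young and 0.89 for aged-sec over young. Its 3 listed variants summed to 9.80, 9.62 and 4.55 TPM. Cep41, linked to tubulin glutamylation in cilia, stood at 4.31, 5.36 and 1.83 TPM, and Cep128, a subdistal appendage protein, at 1.22, 1.41 and 0.33 TPM. Both passed 2-fold between aged and young with 0.5 TPM added, at a log2 ratio of 1.33 for Cep41, but neither reached 10 TPM. Cep72, under 1 TPM throughout, also met 2-fold, at a log2 ratio of 1.00, while its other listed variant was at 0.13. That Cep41 variant is a predicted one. The curated variant of Cep41 stood at 1.76, 2.03 and 1.59 TPM, a log2 ratio of 0.28 for aged over young. Summed over its 4 listed variants, Cep41 stayed under 2-fold, at a log2 ratio of 0.93.

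Cep295, which turns a new centriole into a centrosome, had the lowest Cep ratio of aged-sec over aged. It stood at 1.11, 3.68 and 2.36 TPM, a log2 ratio of -1.38. Cep152, which recruits the centriole kinase Plk4, stood at 0.36, 1.03 and 0.74 TPM, and Cep290, of the ciliary transition zone, at 2.43, 4.08 and 2.72 TPM. In these 3 genes aged-sec was the lowest library. Over the family, aged-sec was below aged in 17 of 19 Cep genes, the exceptions being Cep55 and Cep170 (3.33 TPM in aged-sec, 2.86 TPM in aged and 1.69 TPM in young oocytes). After scaling to equal medians it was below in 7 of 19. Cep76 reached 5.84 TPM, and Cep72, Cep95, Cep112 and Cep350 reached at most 1.94 TPM.

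The variants of a gene could differ. Of the 46 members 21 had several listed transcripts, and RefSeq annotates several mRNAs for 40 of the 45 members whose accession it holds. Between aged-sec and aged, the transcripts of 10 of those 21 genes lay on both sides of 1, and those of the other 11 were all lower in aged-sec. This count was not made over all listed genes, so whether it is a trait of the members was not tested. With 1 transcript per gene, a different measure, 26.6% of all listed genes had aged-sec above aged. Among transcripts of at least 5 TPM the spread of log2 ratios within a gene was 0.74 for Haus1, 0.63 for Dync1i2, 0.61 for Kif14 and 0.60 for Cep55. It was 0.36 for Kif17, 0.35 for Kif18a and 0.25 for Tubal3.

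**Figure D4:**
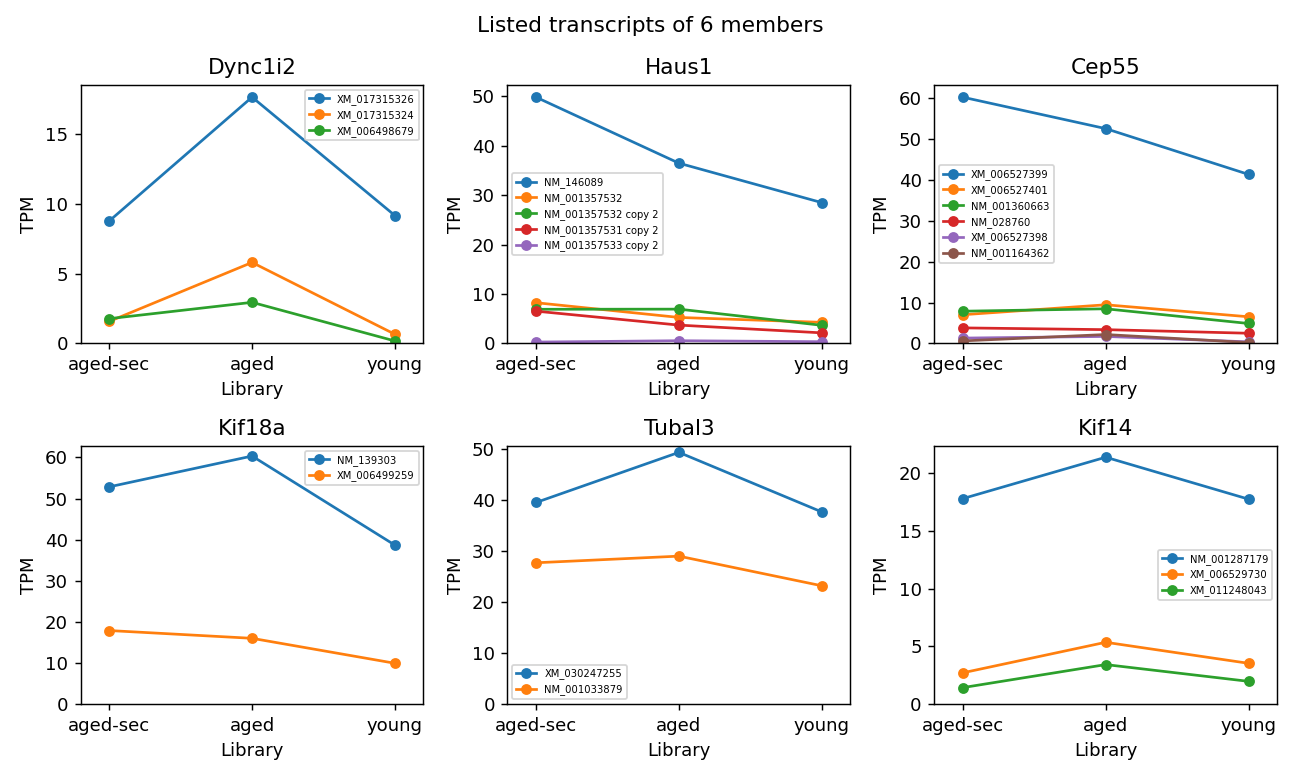
TPM of each listed transcript of Dync1i2, Haus1, Cep55, Kif18a, Tubal3 and Kif14 in the 3 libraries, with 1 line per RefSeq accession. The 3 Dync1i2 lines peak in aged, the leading Haus1 and Cep55 transcripts are highest in aged-sec, and the second Kif18a variant is highest in aged-sec while the leading variant is highest in aged.

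Genes that work with these motors and complexes were counted over fixed lists, with 1 transcript per gene and at least 1 TPM in a library. Of the 14 detected genes of dynactin and the dynein adaptors, 7 had enough TPM for the 2-fold size rule in aged over young and 8 in each of the other comparisons. None met it, where 15.9%, 2.18% and 14.2% of all listed genes were called in the main direction of aged over young, aged-sec over aged and aged-sec over young. Pafah1b1 (Lis1), a dynein regulator, stood at 18.7 TPM in aged-sec, 17.8 TPM in aged and 12.9 TPM in young oocytes, and Nde1, its partner, at 10.7, 17.6 and 13.9 TPM. Aged-sec was thus level with aged for Pafah1b1 and lowest for Nde1. The most abundant were the actin-capping subunits Capza2 (49.7, 51.6 and 37.6 TPM) and Capza1 (29.2, 34.8 and 20.1 TPM), which also belong to dynactin.

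Of the partners of the gamma-tubulin ring, Nedd1 and Mzt1 were the most abundant. Nedd1, which anchors the ring to the spindle, stood at 99.9 TPM in aged-sec, 118 TPM in aged and 69.4 TPM in young oocytes. Mzt1, a small ring subunit, stood at 57.8, 63.2 and 46.0 TPM. In both, aged-sec lay between the others. In all 5 detected genes of this list aged-sec was below aged. The median log2 ratio was -0.36, against -0.23 over all 4320 listed genes at 1 TPM or more. Neither of the 2 with enough TPM met the size rule, against 2.18% of all listed genes called lower for this pair.

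Of 21 detected spindle microtubule-associated proteins, 13 had enough TPM for the 2-fold size rule in aged-sec over young and 2 of them were higher, near the 14.2% of all listed genes. In each of the comparisons with aged, 14 had enough TPM and none met the rule, against 15.9% of all listed genes higher for aged over young and 2.18% lower for aged-sec over aged. The 2 were Nusap1, a microtubule-bundling spindle protein, at 202 TPM in aged-sec, 179 TPM in aged and 97.1 TPM in young oocytes, and Map4, a microtubule stabilizer, at 30.3, 24.4 and 13.5 TPM. Aged-sec was the highest library for both. Tacc3, a spindle protein that works with clathrin, stood at 50.9, 91.5 and 75.2 TPM, with aged highest and aged-sec lowest. Over the list aged-sec was below aged in 16 of 21, against 73.8% of the listed genes at 1 TPM or more, with a median log2 ratio of -0.30. Of the kinesins with other names and the kinesin light chains, 2 were detected at 1 TPM or more and none reached 10 TPM, their 5 listed genes summing to 3.35 TPM in aged-sec, 4.72 TPM in aged and 2.87 TPM in young oocytes.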

How the data were processed

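Per the file headers, the table that the authors deposited gives RefSeq transcripts in TPM for each library, with the authors' ratio columns for aged to young and for aged-sec to aged. Recomputing these deposited ratios from the TPM gave a relative difference of at most 6.6e-07. cDNA was made with SMART-Seq2 and libraries by a transposon-based method, per the labels' protocols. Aligner, quantification program and genome build: not given in the sources used here. The listed transcripts hold 32.1% of all TPM in aged-sec, 32.5% in aged and 22.9% in young oocytes. Depth is unknown, so no counting interval was given, and 1 library per group limits the precision.

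TPM were used as deposited with Python 3.11.15, pandas 2.3.3 and numpy 2.4.6. Each gene was represented by its transcript with the highest mean TPM. Log2 ratios had 0.5 TPM added to both values, which understates differences of low genes. Calls needed a log2 ratio of 1 or more in size and 10 TPM or more in the higher library. This rule was tried only on simulated data with larger changes, more abundant changed genes and little noise. Its error in these libraries was not tested. Named genes were the members at 10 TPM or more, those meeting that rule, the 2 most abundant per family, members whose transcripts differed most, and in other lists those meeting the rule and the 2 most abundant. Members under 10 TPM outside these, Fshr, Pafah1b1, Nde1 and Alms1 were named after their values were seen. Among the oocyte markers Bmp15, Gdf9, Btg4 and Ddx4 were named outside that rule, while the more abundant Oog1 and Nlrp14 were not described. The members, gene lists and markers were chosen with earlier results of these data known. Alternatives were other pseudocounts, minimums, folds, transcript choices and scaling to equal medians. Transcript 3' ends came from GENCODE M21.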

Additional observations from a re-analysis of the deposited data

How the results depend on the processing

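No paired analysis was possible because each group had 1 library, and for the same reason no replicate could be left out. The calls under the 2-fold rule were 0 in each comparison. For aged over young they became 2 of 37 with a minimum of 1 TPM (18.2% of all listed genes), 3 of 46 with no minimum (13.2%), 1 of 17 with all transcripts of a gene summed (Dync1i2; 16.7%) and 3 of 17 at 1.5-fold (44.4%). For aged-sec over aged, all lower, they became 1 of 17 with 0.1 TPM added (Dync1i2; 2.57%), 3 of 37 with a minimum of 1 TPM (6.81%) and 3 of 46 with no minimum (5.10%), being Cep295, Kif20b and Kif22 in both. They were 1 of 17 with transcripts summed (2.18%) and 3 of 17 at 1.5-fold (10.6%). For aged-sec over young, all higher, they became 2 of 32 with a minimum of 1 TPM (14.1%) and 2 of 46 with no minimum (9.73%), being Cep41 and Cep128 in both, and 1 of 14 at 1.5-fold (33.8%). Other settings gave 0. The lower minimums add genes that the 10 TPM rule leaves out. Scaling the listed genes to equal medians reversed the members' median log2 ratio, to -0.27 for aged over young, 0.065 for aged-sec over aged and -0.27 for aged-sec over young, as it did the median of all listed genes. In the other settings these medians moved by less than 0.1 and kept their sign. Since the list was selected on aged over young, the reversal under scaling gives no direction of these mRNAs in the oocytes. Sequencing depth is unknown, so the error of low members could not be given.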

Other observations

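Genes of the centriole and of tubulin folding, which the comparisons above do not describe, followed the same table. Of 16 detected genes of the centriole and its matrix, 12 had aged-sec below aged (73.8% of all listed genes at 1 TPM or more did). None of the 6 or 7 with enough TPM in a comparison met the 2-fold size rule. Of all listed genes, 15.9% were higher for aged over young, 2.18% lower for aged-sec over aged and 14.2% higher for aged-sec over young. So few genes cannot show a departure from these shares. Cetn3, a centrin, was the most abundant, at 310 TPM in aged-sec, 305 TPM in aged and 252 TPM in young oocytes. Plk4, the kinase that starts centriole duplication, stood at 32.7, 49.6 and 32.1 TPM, so that aged-sec and young were level below aged. Alms1, a centrosomal protein, was low in young and level in the others, at 8.39, 8.93 and 2.60 TPM, but did not reach 10 TPM.

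Of 12 detected genes of tubulin folding and modification, 10 had aged-sec below aged, against the same 73.8%. Ttll4, which adds glutamate chains to tubulin, was the only 1 of 8 with enough TPM that met the 2-fold size rule for aged over young (15.9% of all listed genes did), at 9.08 TPM in aged-sec, 11.4 TPM in aged and 4.98 TPM in young oocytes. Subunits of the chaperonin that folds tubulin were the most abundant, with Cct8 at 160, 181 and 135 TPM and Cct5 at 54.3, 82.3 and 58.7 TPM. In both, aged was highest.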
